A study of Mus musculus with 12 samples.

Results

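Nucleotide, serine and one-carbon synthesis was followed through 40 genes, chosen by name: enzymes that build purines and pyrimidines, supply deoxynucleotides, carry folate-bound carbon units, make serine or recycle bases and nucleosides. The list was applied to an RNA-seq table of mouse B cell acute lymphoblastic leukemia (B-ALL) cells, and 39 of the 40 were tested among the 11536 genes with a mean value of at least 3 over 6 samples. The remaining gene, Pnp, which encodes purine nucleoside phosphorylase, had no row. Both groups were pre-B cells from bone marrow of mice with floxed Ctnnb1 alleles (Ctnnb1 fl/fl), the gene for β-catenin. They had been cultured with IL7, transformed with retroviral BCR-ABL1 and given an ERT2 vector, which lacks Cre, so that both β-catenin alleles were kept. All 6 samples had received 4-hydroxytamoxifen (4-OHT, 1 μM) for 2 days. The 3 control samples had nothing else, and the 3 treated samples also had LY2090314, a small-molecule inhibitor of GSK3β, at 40 nM for 1 day by the sample labels. The legend of the study's figure gives a shorter time for the inhibitor. The series holds 12 samples in 4 groups of 3. Its other 6, Cre-ERT2 cells with and without LY2090314, were not analysed here. The ages of the mice are not given in the sources used here.

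Values were regularized log2 (rlog) levels deposited by the authors, so a difference of 1 stands for a 2-fold change on that scale, and 3 was the lower limit for testing. Library depth is unknown, since the table holds no read counts. Gene lengths are not removed from rlog values, so levels of different genes were not compared with each other. Across the genes tested, the SD of the difference between a pair of samples was 0.185 to 0.253 within a group and at least 0.581 between groups. Treated samples a and b carried the same library number and differed least among the treated (SD 0.186), while sample c differed from them by 0.253. The study describes the samples of a group as biological replicates from separate mice. The column names do not tie treated a and b to separate mice, so part of the spread that the p-values rest on may be technical. All 10 B-lineage marker genes were above the limit in both groups, and their summed level (log2 of the sum of the unlogged values) was 16.74 to 16.76 in the control and 16.28 to 16.42 in the treated samples. Of them, 8 were called lower with LY2090314 in the test given below, as were 25.3% of all genes tested. Among T cell markers, 6 of 8 were under the limit, including Cd3d, Cd3e and Cd3g, and the summed level of the 8 was 11.46 to 11.60 in the control and 12.35 to 12.59 in the treated samples, nearly all of it from Lck. Of the 9 myeloid markers 8 were under the limit and 4 were at 0 in every sample, Mpo and Elane among them. The myeloid sum was 5.90 to 6.10 in the control and 6.44 to 6.55 in the treated samples. Of the 6 erythroid markers 5 were under the limit, with sums of 4.42 to 4.46 and 4.14 to 4.17, and all 6 stromal markers were under it, 4 of them at 0 in every sample, with a sum of 2.24 in both groups. A value of 0 adds 1 to such a sum, so the stromal sum comes mostly from genes at 0 and does not measure expression. In RNA from whole cultures, fewer cells of a type and less RNA per cell cannot be told apart.

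Proliferating lymphoid cells double their DNA and ribosomal RNA at each division and draw purine and pyrimidine rings from glutamine, aspartate, glycine and formyl groups. The formyl groups come from serine through folate-dependent enzymes that work in the cytosol and in mitochondria, and serine itself is imported or made from 3-phosphoglycerate. Ribonucleotide reductase turns ribonucleotides into deoxynucleotides, thymidylate synthase adds the methyl group of thymidine, and salvage enzymes return free bases and nucleosides to the pool. The antileukemic drugs methotrexate, mercaptopurine and cytarabine act on or are processed by these routes.

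Promoters of the members were read from RefSeq (GRCm38.p6) as windows of 300 bases, 250 before and 50 after each start, and 37 of the 40 members had at least 1 window. The E-box CACGTG, the letters bound by MYC and other basic helix-loop-helix factors, was found in 5 of 37 members (13.5%), against 12.2% of the 8681 genes tested that had a window and 8.09% of all 27025 genes with a window. It was in 4 of the 29 members that fell (Tyms, Atic, Paics and Impdh2) and in 1 of the 8 others (Nme1). The variant CACGCG, searched on both strands, was in 4 members (10.8%), namely Slc19a1, Shmt1, Shmt2 and Psat1, against 20.9% of the genes tested and 10.5% of all. The E-box and its variant differ at 1 letter and never match the same 6 bases. An ATF4 element (TGATGNAA) was in the Prps1 window only, 2.7% of members beside 2.66% of the genes tested. Neither the E2F letters (TTTGGCGC and TTTCGCGC) nor the TCF letters (CTTTGATC, CTTTGTTC and CTTTGAAC), all searched on both strands, were in any member's window, beside 1.92% and 2.93% of the genes tested. A match is a description of letters and not a bound site.

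Stretches of 4 of these windows are shown because they set like motifs beside members that fell and one that did not pass the test: the E-box of Tyms, which fell, beside that of Nme1, whose change did not pass, and the variant in Slc19a1 and Shmt1, the folate genes with the largest falls. Capitals mark the motif, and each is written 5′ to 3′ on the strand of its gene.
Tyms: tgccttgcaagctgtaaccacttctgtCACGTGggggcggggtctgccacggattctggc
Nme1: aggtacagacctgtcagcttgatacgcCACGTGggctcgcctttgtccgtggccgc
Slc19a1: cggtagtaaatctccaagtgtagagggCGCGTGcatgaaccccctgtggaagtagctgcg
Shmt1: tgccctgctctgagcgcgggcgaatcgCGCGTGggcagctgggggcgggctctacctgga

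The Tyms stretch (chr5:30073654-30073713, minus strand) lies outside the gene, with its E-box 61 bases before the start. In Nme1 (chr11:93968026-93968081, minus strand) the E-box shown sits 29 bases before 1 of the RefSeq starts and in an intron of the longer transcript. Nme1 has another E-box, not shown, 18 bases before a different RefSeq start (chr11:93968285-93968290). The Slc19a1 stretch (chr10:77033042-77033101, plus strand) and the Shmt1 stretch (chr11:60811324-60811383, minus strand) are likewise intronic in the annotated gene, with CGCGTG, the reverse complement of the variant, 143 and 91 bases before a RefSeq start.

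With LY2090314, 29 of the 39 members tested fell, 4 rose and 6 did not pass the test (limma, Benjamini-Hochberg adjusted p under 0.05 over all genes). Among all genes tested, 25.3% were called lower and 24.8% higher. The members had been chosen with earlier results of these data known, so the comparison with all genes is a description. Differences are treated minus control on the rlog scale, ± SE, and the values of 3 samples follow the order a, b and c. The median difference of the members was -0.51, against 0.012 for all genes. A fall of at least 0.5 was called in 21 members (9.37% of all genes) and a rise of that size in 4 (11.3% of all genes). The 3 treated samples did not overlap the 3 controls in 34 of 39 members, where 58.6% of all genes did not overlap. The 4 that rose were Ada, Rrm2b, Dck and Samhd1, and the 6 that did not pass were Dhodh, Pfas, Adss, Impdh1, Psat1 and Nme1. Of these 6, all but Nme1 had a difference below 0. In GENCODE vM21 (GRCm38), Slc19a1 is ENSMUSG00000001436 at chr10:77032241-77061002 (plus strand), Gart is ENSMUSG00000022962 at chr16:91621186-91646952 (minus strand), Cad is ENSMUSG00000013629 at chr5:31054780-31078479 (plus strand), Rrm2b is ENSMUSG00000022292 at chr15:37923952-37961318 (minus strand) and Ada is ENSMUSG00000017697 at chr2:163726584-163750239 (minus strand). All 5 are protein-coding genes.

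**Figure D1:**
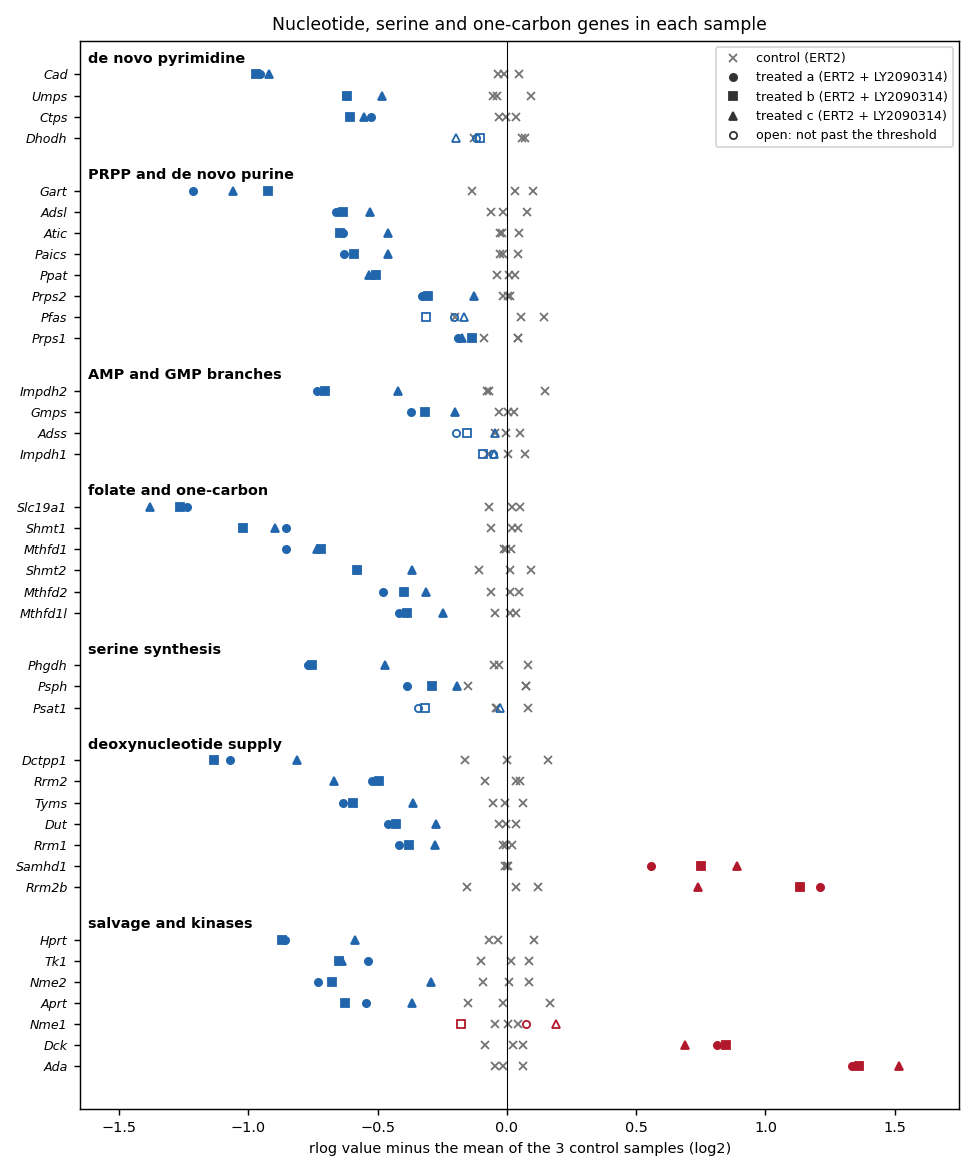
Each row is a member and each point a sample, as the rlog value minus the mean of the 3 control samples (log2), with crosses for controls, filled or open shapes for treated samples a, b and c, blue for a mean difference below 0, red for one above 0, and open shapes for members that did not pass the test. The 29 members that fell lie left of 0 in every treated sample, and Samhd1, Rrm2b, Dck and Ada lie right of it.

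**Figure D2:**
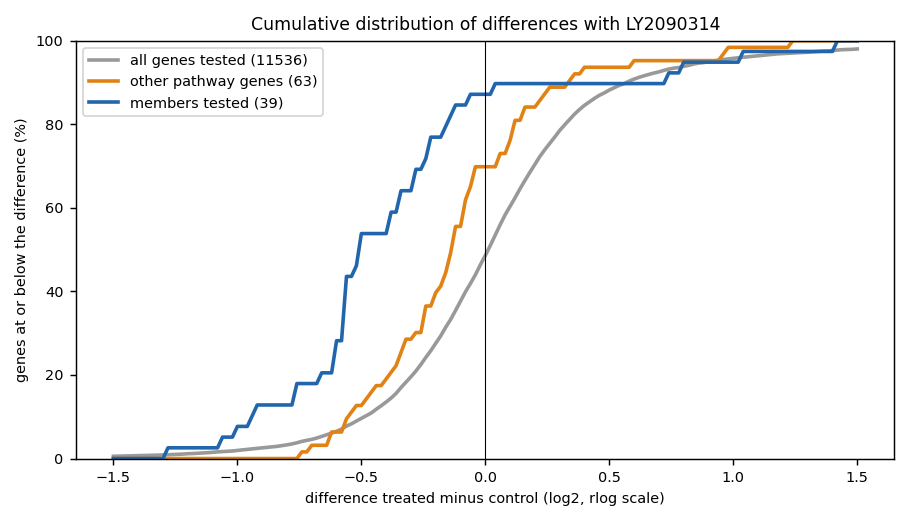
Lines give the percentage of genes (vertical axis) whose difference, treated minus control on the log2 scale, is at or below the value on the horizontal axis, for the 39 members tested, 63 other genes of the pathways and all 11536 genes tested. The line of the members lies to the left, with a median of -0.51, against -0.13 for the other pathway genes and 0.012 for all genes.

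Of 4 genes of de novo pyrimidine synthesis 3 fell, with a median difference of -0.57 over the 4. Cad, the trifunctional enzyme that makes dihydroorotate, had rlog levels of 13.21, 13.23 and 13.30 in the control samples and 12.29, 12.28 and 12.33 in the treated samples. The groups were well apart, and the difference was -0.95 ± 0.047 (SE, n = 3 per group), 1.93-fold lower (adjusted p = 2.66e-06). Umps, which forms UMP from orotate, gave 11.04, 11.02 and 11.16 in the control samples and 10.45, 10.45 and 10.59 in the treated samples. Its highest treated value was under its lowest control (-0.57 ± 0.062, adjusted p = 0.000174). Ctps, one of the enzymes that convert UTP to CTP, gave 10.75, 10.72 and 10.79 in the control samples and 10.23, 10.15 and 10.20 in the treated samples. It too did not overlap between groups (-0.56 ± 0.047, adjusted p = 4.43e-05). Dhodh, the mitochondrial step between CAD and UMPS, had a difference of -0.14 (95% interval -0.32 to 0.037, adjusted p = 0.165), and its groups overlapped.

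Of 8 genes from phosphoribosyl pyrophosphate (PRPP) to IMP, 7 fell, and the median difference was -0.54. Gart, which encodes 3 activities of the purine pathway including a folate-dependent transformylase, moved most. Its levels were 10.60, 10.84 and 10.77 in the control samples and 9.53, 9.81 and 9.68 in the treated samples, a difference of -1.07 ± 0.089 (SE, n = 3 per group) or 2.09-fold lower (adjusted p = 4.42e-05), with the treated samples about 1 unit under the controls. An antisense RNA, Gm15964, shares 1014 exon bases with Gart and was not among the genes tested. Ppat, the amidotransferase that commits PRPP to purines, had 11.58, 11.55 and 11.50 in the control samples and 11.03, 11.04 and 11.01 in the treated samples. Its treated samples lay close together and below every control (-0.52 ± 0.043, adjusted p = 4.25e-05). Paics, which carries later carboxylation and ligation steps, was measured at 13.14, 13.15 and 13.21 in the control samples and 12.53, 12.57 and 12.70 in the treated samples. These groups were also apart (-0.56 ± 0.059, adjusted p = 0.000149). Ppat and Paics are transcribed from neighbouring starts on opposite strands and share 272 exon bases. The library kit marks strand.

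Adsl cleaves succinyl groups both on the way to IMP and on the way to AMP. It stood at 11.02, 11.07 and 11.16 in the control samples and 10.42, 10.45 and 10.55 in the treated samples, lower in each treated sample than in any control (-0.61 ± 0.058, adjusted p = 9.14e-05). Atic, the bifunctional enzyme that closes the purine ring with a formyl group, stood at 12.68, 12.67 and 12.74 in the control samples and 12.06, 12.05 and 12.24 in the treated samples. Its treated sample c lay highest of the treated, still under the controls (-0.58 ± 0.062, adjusted p = 0.000169). Prps2 and Prps1, the synthetases that make PRPP, fell less (-0.25 ± 0.061, adjusted p = 0.01, and -0.17 ± 0.053, adjusted p = 0.0306). The Prps1 call was lost in 7 alternative fits beside those with stricter limits, among them those without control b, control c, treated a or treated b, and its adjusted p reached 0.116. Of its 31-base words (all stretches of that length in its annotated transcripts), 18.5% occur in the copy Prps1l3. Pfas, which works between Gart's steps, had a difference of -0.23 (95% interval -0.44 to -0.019, adjusted p = 0.0672). Control c, at 11.43, lay among its treated values, and without that sample the Pfas difference was -0.33 (adjusted p = 0.00622). After median centring it was -0.25 (adjusted p = 0.0487), and without control a it was -0.155 (adjusted p = 0.201).

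Past IMP, 2 of the 4 genes counted here fell and both are on the GMP side. Adsl, counted above, also works on the way to AMP and fell. So did Adssl1, a gene outside the members with a name like that of Adss (-0.57 ± 0.075, adjusted p = 0.000495). Impdh2, the inducible form of the dehydrogenase that limits GMP synthesis, had levels of 13.53, 13.52 and 13.75 in the control samples and 12.87, 12.90 and 13.18 in the treated samples. The treated samples were below every control, with sample c nearest to them, and the difference was -0.62 ± 0.099 (SE, n = 3 per group; adjusted p = 0.00136). The copy Impdh2-ps holds 43.2% of the 31-base words of Impdh2, so its reads could be split between them. Gmps, which aminates XMP to GMP, fell less (-0.30 ± 0.055, adjusted p = 0.00296). On the AMP side Adss, adenylosuccinate synthase, had a difference of -0.13 ± 0.055, adjusted p = 0.0792. Without treated sample c it passed (-0.18, adjusted p = 0.0167), but that fit kept only treated a and b, which share a library number. Adss also passed after quantile normalization of all 6 samples (-0.155, adjusted p = 0.0324). In other fits the adjusted p of Adss reached 0.234. Impdh1, the other IMP dehydrogenase, had a difference of -0.065 ± 0.051, adjusted p = 0.317, with overlapping groups.

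All 6 folate and one-carbon members fell, with a median of -0.64. Slc19a1, the reduced folate carrier that also imports methotrexate, had the largest fall of all members. Its levels were 9.91, 10.02 and 9.99 in the control samples and 8.74, 8.71 and 8.59 in the treated samples. The lowest control was more than 1 unit over the highest treated sample, and the difference was -1.29 ± 0.064 (SE, n = 3 per group), 2.45-fold lower (adjusted p = 2.64e-06). Shmt1, the cytosolic serine hydroxymethyltransferase, which moves a carbon from serine to tetrahydrofolate, had 11.19, 11.27 and 11.30 in the control samples and 10.40, 10.24 and 10.36 in the treated samples. Its groups were apart by well over 0.5 (-0.92 ± 0.059, adjusted p = 9.76e-06). Smcr8, which overlaps it on the opposite strand over 184 exon bases, was higher with LY2090314 (0.61, adjusted p = 0.000428). Mthfd1, the trifunctional cytosolic enzyme that interconverts and makes formyl-tetrahydrofolate, had 11.66, 11.67 and 11.69 in the control samples and 10.82, 10.95 and 10.94 in the treated samples. No treated sample came near the controls (-0.77 ± 0.051, adjusted p = 1.25e-05).

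Shmt2, the mitochondrial partner of Shmt1, had 12.56, 12.68 and 12.76 in the control samples and 12.09, 12.09 and 12.30 in the treated samples. Its fall was smaller (-0.51 ± 0.077, adjusted p = 0.00106), and treated sample c was the highest of the treated. Mthfd2, the mitochondrial dehydrogenase and cyclohydrolase of dividing cells, was at 10.63, 10.52 and 10.60 in the control samples and 10.10, 10.19 and 10.27 in the treated samples. Every treated value was below the controls (-0.40 ± 0.059, adjusted p = 0.000956). Mthfd1l, which releases formate in mitochondria, gave -0.35 ± 0.058, adjusted p = 0.00154. Serine synthesis was called lower at 2 of 3 steps. Phgdh, its first enzyme, was measured at 13.00, 13.02 and 13.13 in the control samples and 12.28, 12.29 and 12.58 in the treated samples. The difference was -0.67 ± 0.086 (SE, n = 3 per group; adjusted p = 0.000453), but 55.9% of its 31-base words occur in other annotated genes, 44.8% in Gm7901. Psph, the last step, gave -0.29 ± 0.087, adjusted p = 0.0257, a call that was lost in 6 alternative fits beside those with stricter limits, among them those without control a, control c, treated a or treated b (adjusted p up to 0.0869). Cct6a, on the strand opposite Psph, was also lower (-0.44, adjusted p = 0.00422). The middle enzyme, Psat1, had a difference of -0.23 ± 0.088, adjusted p = 0.0613. Its treated sample c, at 12.15, lay among the controls, and without that sample the difference was -0.33 (adjusted p = 0.00174). That fit kept only treated a and b, which share a library number. Psat1 also passed after quantile normalization of all 6 samples (-0.26, adjusted p = 0.0253). In other fits the adjusted p of Psat1 reached 0.187.

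The 7 genes of deoxynucleotide supply divided into 5 that fell and 2 that rose. Dctpp1, a pyrophosphatase that removes abnormal and excess dCTP, fell most. It had 9.67, 9.84 and 10.00 in the control samples and 8.76, 8.70 and 9.02 in the treated samples, a difference of -1.01 ± 0.11 (SE, n = 3 per group) or 2.01-fold (adjusted p = 0.000181). The spread within either group was far smaller than the distance between them. Rrm2, the S phase small subunit of ribonucleotide reductase, had 12.54, 12.53 and 12.41 in the control samples and 11.97, 12 and 11.83 in the treated samples. Here treated sample c was the lowest, and no sample overlapped (-0.56 ± 0.064, adjusted p = 0.000225). Tyms, thymidylate synthase, had 10.31, 10.26 and 10.37 in the control samples and 9.68, 9.72 and 9.95 in the treated samples. Treated c was again nearest to the controls (-0.53 ± 0.079, adjusted p = 0.000896). Dut, which hydrolyses dUTP, and Rrm1, the large reductase subunit, fell by smaller amounts (-0.39 ± 0.059, adjusted p = 0.00104, and -0.36 ± 0.057, adjusted p = 0.00132).

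Rrm2b encodes the small reductase subunit that p53 induces and that also serves cells outside S phase. Its levels were 8.99, 8.91 and 8.72 in the control samples and 10.08, 10.00 and 9.61 in the treated samples. It rose in each treated sample, least in c, by 1.03 ± 0.13 (SE, n = 3 per group), 2.04-fold (adjusted p = 0.000387). Samhd1, a triphosphohydrolase that breaks down deoxynucleotides, had 9.96, 9.96 and 9.95 in the control samples and 10.52, 10.71 and 10.85 in the treated samples. Controls were nearly equal and all treated samples were above them (0.73 ± 0.081, adjusted p = 0.000199), with sample c the highest.

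Among salvage enzymes and kinases, 4 of the 7 tested fell and 2 rose. Hprt, which returns hypoxanthine and guanine to IMP and GMP and activates mercaptopurine, had 12.42, 12.38 and 12.56 in the control samples and 11.60, 11.58 and 11.87 in the treated samples. It was lower in every treated sample (-0.77 ± 0.086, adjusted p = 0.000205). Aprt, which does the same for adenine, had 9.73, 9.86 and 10.04 in the control samples and 9.33, 9.25 and 9.51 in the treated samples. Control a, its lowest control, was still over treated c (-0.51 ± 0.098, adjusted p = 0.00329). Tk1, the S phase thymidine kinase, had 9.74, 9.81 and 9.62 in the control samples and 9.19, 9.08 and 9.08 in the treated samples. Treated values were close together and under the controls (-0.61 ± 0.067, adjusted p = 0.000198).

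The kinases Nme1 and Nme2, nucleoside diphosphate kinases that are neighbours in the genome, went apart. Nme2 had 12.18, 12.08 and 12.26 in the control samples and 11.44, 11.50 and 11.88 in the treated samples. Its treated sample c lay well above a and b, and the difference was -0.57 ± 0.11 (SE, n = 3 per group; adjusted p = 0.00412). Nme1 had 11.23, 11.18 and 11.27 in the control samples and 11.30, 11.05 and 11.42 in the treated samples. Those groups overlapped (0.029 ± 0.089, adjusted p = 0.806), and without treated sample c the Nme1 difference was -0.052. A read-through gene, Gm20390, shares 47.9% of the 31-base words of Nme2 and 11.7% of those of Nme1, so the split of reads among them is uncertain. Gm20390 itself went from a mean of 10.81 to 10.78 (adjusted p = 0.812).

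Dck, the kinase that phosphorylates deoxycytidine and activates cytarabine, rose. Its levels were 12.55, 12.52 and 12.41 in the control samples and 13.31, 13.34 and 13.18 in the treated samples, a difference of 0.78 ± 0.063 (SE, n = 3 per group) or 1.72-fold (adjusted p = 3.53e-05), with no overlap. Ada, adenosine deaminase, had the largest rise. It stood at 10.23, 10.20 and 10.31 in the control samples and 11.58, 11.61 and 11.76 in the treated samples. Each treated sample was more than 1 unit over each control, and the difference was 1.4 ± 0.061 (SE, n = 3 per group), 2.65-fold higher (adjusted p = 1.36e-06). No 31-base word of Ada is shared with another gene.

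**Figure D3:**
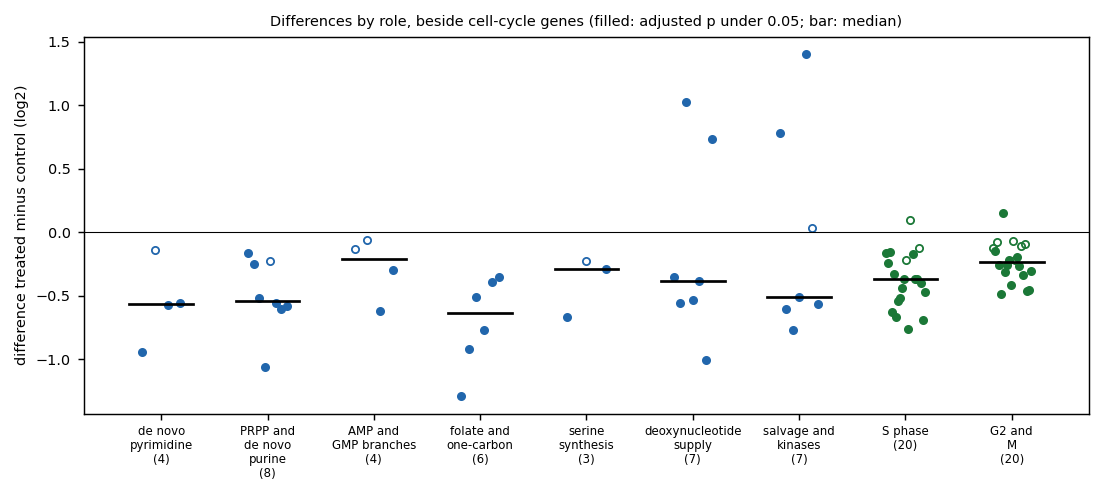
Each point is a gene, placed by role (horizontal axis, number tested in brackets) and by its difference, treated minus control on the log2 scale (vertical axis); filled points passed the test, and bars are medians. Folate and one-carbon genes have the lowest median, -0.64, and the 4 rises stand in deoxynucleotide supply and salvage; S phase genes (median -0.37) and G2 and M genes (-0.24) are shown beside them.

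Cell-cycle genes moved in the same samples, where 25.3% of all genes tested were called lower and 24.8% higher. Of 20 S phase genes outside the members, 17 fell and 0 rose, with a median of -0.37, from -0.76 for Ccne2 to 0.093 for Uhrf1, a gene that did not pass the test (adjusted p = 0.286). Of 20 genes of G2 and M, 13 fell and 1, Aurka, rose (0.15, adjusted p = 0.0344), with a median of -0.24 and the lowest value for Mki67 (-0.49). The Aurka call was lost without control a, control b, treated a or treated c, and after centring each sample on its median. Among targets of ATF4, a factor that drives serine and folate enzymes during amino acid stress, 15 of 18 were tested. In that list 4 fell (2 without control b, 1 without treated a, 2 without treated b) and 6 rose. The median was 0.13, from -0.36 for Asns to 4.01 for Vldlr. The count that fell, 4 of 15, lies near the 25.3% of all genes called lower. The part of these lists in the members' values was not tested.

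The treated samples were not alike. Sample c was the highest of the 3 in 20 of the 29 members that fell, a in 4 and b in 5. No such count was made over all genes called lower, so whether this order is particular to the members was not tested. The median deviation of those 29 members from the control mean was -0.62 in a, -0.62 in b and -0.46 in c. The median over all genes lay within 0.013 of 0 in every sample, but it takes genes that fell and rose together. Leaving out sample c gave 31 members lower in place of 29 and the same count of 4 higher. That fit kept only a and b, which share a library number, so its spread may be technical. When a and b were counted as 1 sample, 27 were lower and 4 higher.

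Paralogues that catalyse one reaction were compared by subtracting the value of one gene from that of the other within each sample. Of 9 pairs, 8 did not overlap between groups. Among single genes 58.6% did not overlap, and no such share was computed for gene pairs in general. The smallest p that 3 against 3 samples allow is 0.10 in the exact two-sided permutation test, and it was reached by these 8 (0.112 after adjustment over the 9), so no pair could pass. Rrm2 minus Rrm2b moved most. It was 3.55, 3.62 and 3.69 in the control and 1.89, 2.00 and 2.22 in the treated samples. Each treated sample was below each control, with a change of -1.59 ± 0.10 (SE; 95% interval -1.88 to -1.30).

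Tk1 minus Tk2, the cytosolic against the mitochondrial thymidine kinase, changed by -0.72 ± 0.062 (SE; 95% interval -0.89 to -0.55), and Tk2 itself had a difference of 0.11 ± 0.097, adjusted p = 0.37. Mthfd2 minus Mthfd2l, mitochondrial enzymes of one reaction, changed by -0.61 ± 0.044 (SE; 95% interval -0.74 to -0.49). Mthfd2l had a difference of 0.22 ± 0.096, adjusted p = 0.0932. The difference of Ctps minus Ctps2 was -0.48 ± 0.065 (SE; 95% interval -0.66 to -0.30). For the cytosolic minus the mitochondrial folate enzymes it was -0.42 ± 0.052 (SE; 95% interval -0.56 to -0.27) in Mthfd1 against Mthfd1l. It was -0.41 ± 0.08 (SE; 95% interval -0.64 to -0.19) in Shmt1 against Shmt2. In both, the cytosolic gene had the larger fall.

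In the other direction, Impdh1 minus Impdh2 had a change of 0.55 ± 0.10 (SE; 95% interval 0.26 to 0.84) and Nme1 minus Nme2 one of 0.59 ± 0.11 (SE; 95% interval 0.30 to 0.89), with the reads of Nme1 and Nme2 uncertain as above. Prps1 minus Prps2 was the pair that overlapped. It changed by 0.087 ± 0.084 (SE; 95% interval -0.15 to 0.32), exact p = 0.4.

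**Figure D4:**
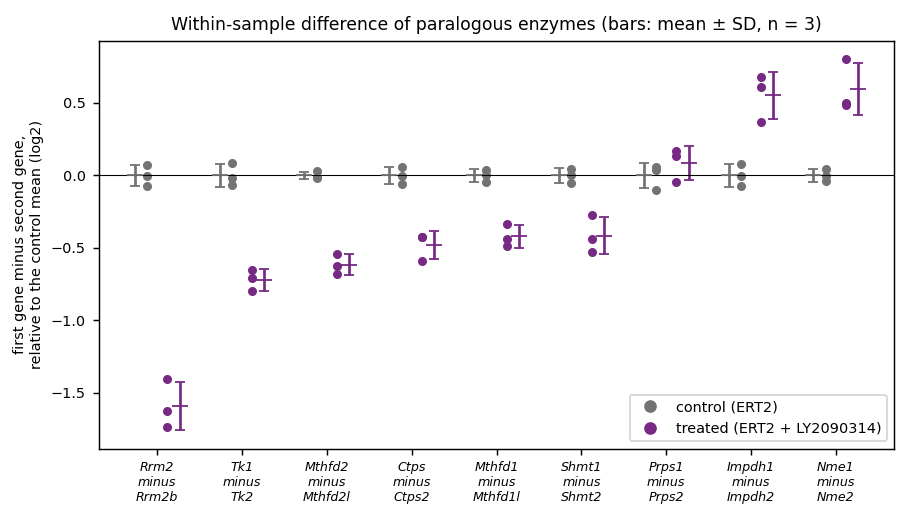
For each of 9 paralogue pairs (horizontal axis) the points are samples, as the rlog value of the first gene minus the second, relative to the control mean (log2, vertical axis), in gray for controls and purple for treated samples, with bars for mean ± SD (n = 3). Rrm2 minus Rrm2b lies lowest, with a mean of -1.59, and only Prps1 minus Prps2 overlaps between groups.

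Other genes of the same pathways numbered 87, of which 63 were tested, 22 were under the limit and 2 had no row. Of the 63, 26 fell, 7 rose and 30 did not pass, with a median of -0.13. Over all genes tested the shares were 25.3% lower and 24.8% higher. By route, 8 of 18 folate and glycine genes, 7 of 17 purine genes, 10 of 21 pyrimidine and deoxynucleotide genes and 1 of 7 genes of serine use and transport fell. Dctd, which deaminates dCMP to dUMP, went from 8.37, 8.36 and 8.64 in the control to 8.04, 7.43 and 7.80 in the treated samples. Its samples spread widely, with treated b lowest (-0.70 ± 0.16, adjusted p = 0.00716). Gcsh, a subunit of the glycine cleavage system, went from 9.80, 9.79 and 9.93 to 9.14, 9.23 and 9.25, with no overlap (-0.64 ± 0.062, adjusted p = 0.000103).

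Of the 7 that rose, Slc29a1, the equilibrative nucleoside transporter, led. It went from 11.97, 12 and 12.08 to 13.24, 13.20 and 13.31, 2.34-fold higher (1.23 ± 0.054, adjusted p = 1.34e-06). Pnp2, a purine nucleoside phosphorylase, went from 9.93, 9.88 and 9.96 to 10.89, 10.88 and 10.93. Treated and control values were tight and apart (0.97 ± 0.047, adjusted p = 2.25e-06). Gldc, the glycine decarboxylase that opens the glycine cleavage system, went from 9.66, 9.68 and 9.69 to 10.60, 10.64 and 10.61 (0.94 ± 0.045, adjusted p = 2.19e-06), opposite to its partner Gcsh.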

How the data were processed

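Polyadenylated RNA of 12 samples was sequenced with a stranded, paired-end kit. Per the study's methods, the authors' pipeline was Salmon for transcript abundance, STAR for mapping to mm10 (GRCm38, GENCODE vM24) and DESeq2 (version 1.30.1). The authors deposited rlog values (log2 scale, shrunken for genes with few reads), without counts. Shrinkage makes differences of low genes smaller. Of the 12 columns, 3 ERT2 and 3 ERT2 + LY2090314 columns were used; the other 6 columns, named with both cre and LY, could not be placed in 1 sample group each and were not used. DESeq2 on counts could not be run, so limma (version 3.58.1, R 4.3.3; lmFit, eBayes with trend) was fitted to genes with a mean of at least 3, with Benjamini-Hochberg adjustment over all 11536 and a threshold of 0.05. It was tested on simulated data. Paralogue contrasts used exact two-sided permutation tests. Overlapping exons and shared 31-base words came from GENCODE vM21. Values in every sample are given for members past the threshold with a difference of at least 0.5, for those that rose, for members of a paralogue pair whose genes differ in direction and for the 3 largest falls and rises among other pathway genes. Of these, 1 is not reported here. Members and lists were chosen with earlier results of these data known. Alternatives changed the lower limit, scaling, variance trend, threshold, size limit and samples.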

Additional observations from a re-analysis of the deposited data

How the results depend on the processing

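The counts of members that fell (26 to 31 without the size limit) or rose (4), and the members' median (-0.54 to -0.46), stayed within 1.5 times of, or within the replicate spread of, the reported values under every alternative, as did all motif shares. Over single members, 515 values kept their direction and call, 24 lost the call, 6 gained it and 1 turned: Nme1, at -0.052 without treated c and up to 0.13 with another sample left out (treated b). With a size limit of 0.5, 2388 genes in all, 8 pathway genes lower and 4 higher, 6 S phase genes lower, 0 G2 and M genes in either direction, and 0 ATF4 targets lower and 3 higher were called. At a threshold of 0.01 there were 17 pathway genes lower, 1 ATF4 target lower and 0 G2 and M genes higher. The G2 and M count higher (1) was also 0 after median centring, without a variance trend and with the shared library number counted as 1 sample, and 0 to 1 with a sample left out. ATF4 targets lower numbered 2 without a lower limit, 2 without a trend, 1 with the shared number as 1 sample and 1 to 3 with a sample left out. A size or threshold limit removes calls by its construction; elsewhere the cause was not tested. The median difference of all genes went from 0.012 to -0.015 with median centring and to -0.037 with quantile normalization. The fits of cell-cycle and ATF4 lists and of single members under alternatives were added after seeing the data. No paired analysis was possible because nothing in the names of the columns ties them to the replicates of the titles. Depth is unknown, so a limit from counting error cannot be given.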

Other observations

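The 1 listed gene without a row, Pnp, shares its place on chr14 with Gm49342, a protein-coding gene on the same strand with 718 exon bases in common. Gm49342, named after its values were seen, had rlog values of 13.53, 13.52 and 13.56 in the control samples and 13.14, 13.17 and 13.15 in the treated samples, a difference of -0.38 ± 0.046 (SE, n = 3 per group; limma adjusted p = 0.000308). Pnp2, a gene of the same family, moved the other way (0.97, adjusted p = 2.25e-06). How much of the Gm49342 signal comes from Pnp transcripts was not tested.

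Nt5e, the surface enzyme that makes adenosine from AMP, was under the limit for testing, with values of 1.92, 1.93 and 1.92 in the control samples and 2.99, 3.01 and 2.79 in the treated samples. Nt5e was named after its values were seen, and it was not tested in the main fit. The alternative without a lower limit included it, but its own result there was not recorded.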
